A study of Mus musculus with 24 samples.

Results

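The semaphorins, plexins and neuropilins are the ligands and receptors of one family of guidance signals, and 31 of their genes were among the 19937 measured in mouse hindlimb buds. A gene was a member by its symbol on the array's platform, without regard to the gene's own measured values. The symbols taken were those of semaphorins of classes 3 to 7, plexins of subfamilies A to D, Nrp1 and Nrp2. The family itself was chosen with earlier results of these data known. There were 20 semaphorins (7 of class 3, 6 of class 4, 2 of class 5, 4 of class 6 and Sema7a), 9 plexins (4 of subfamily A, 3 of B, 1 of C and 1 of D) and both neuropilins. RNA came from both hindlimb buds of 12 Nipbl+/- and 12 wild type embryos at E10.5, with 1 Affymetrix Mouse Gene 1.0 ST array for each embryo, and the study asked which genes change in limb buds when 1 copy of Nipbl is lost. Nipbl loads cohesin, the ring complex that holds chromatin loops, onto chromosomes. The allele is lost in every cell of the mutant embryo, and the whole bud was taken, so the values are averages over mesenchyme, ectoderm, vessels, nerve and muscle precursors. In such samples fewer cells of a type and less RNA per cell cannot be told apart.

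Semaphorins are secreted, membrane-spanning or lipid-anchored proteins that mostly repel growing axons and migrating cells. They bind plexins, whose cytoplasmic part acts on small GTPases and so on the cytoskeleton, and most secreted class 3 semaphorins reach plexins through neuropilins, which also serve as co-receptors for vascular endothelial growth factors (VEGFs). In limb buds these signals are known for guiding motor and sensory axons and for patterning vessels.

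Of the 31 members, 2 fell and 0 rose in Nipbl+/- hindlimb buds. The 2 were Sema6a, a membrane-spanning ligand of class 6, and Plxna4, a plexin that Sema6a binds. A gene was called at a Benjamini-Hochberg adjusted p under 0.05 over all genes from limma, a linear model that shares information on spread between genes. Over all genes 0.527% were called lower and 0.286% higher, or 0.813% in either direction. At an unadjusted p under 0.05 from limma, 5 members were lower and 1 was higher, against 5.14% of all genes lower and 4.13% higher. At an adjusted p under 0.25 the members counted were the same in number, 5 lower and 1 higher, against 1.91% of all genes lower and 1.21% higher. The log2 difference, Nipbl+/- minus wild type, lay below 0 for 23 of the 31 members, as it did for 53.5% of all genes. Its median was -0.03 over the members and -0.005 over all genes. The ligands and the receptors each gave 1 of the calls, with 1 of 20 semaphorins and 1 of 11 receptors called lower. The median log2 difference was -0.03 for the ligands and -0.07 for the receptors.

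**Figure D1:**
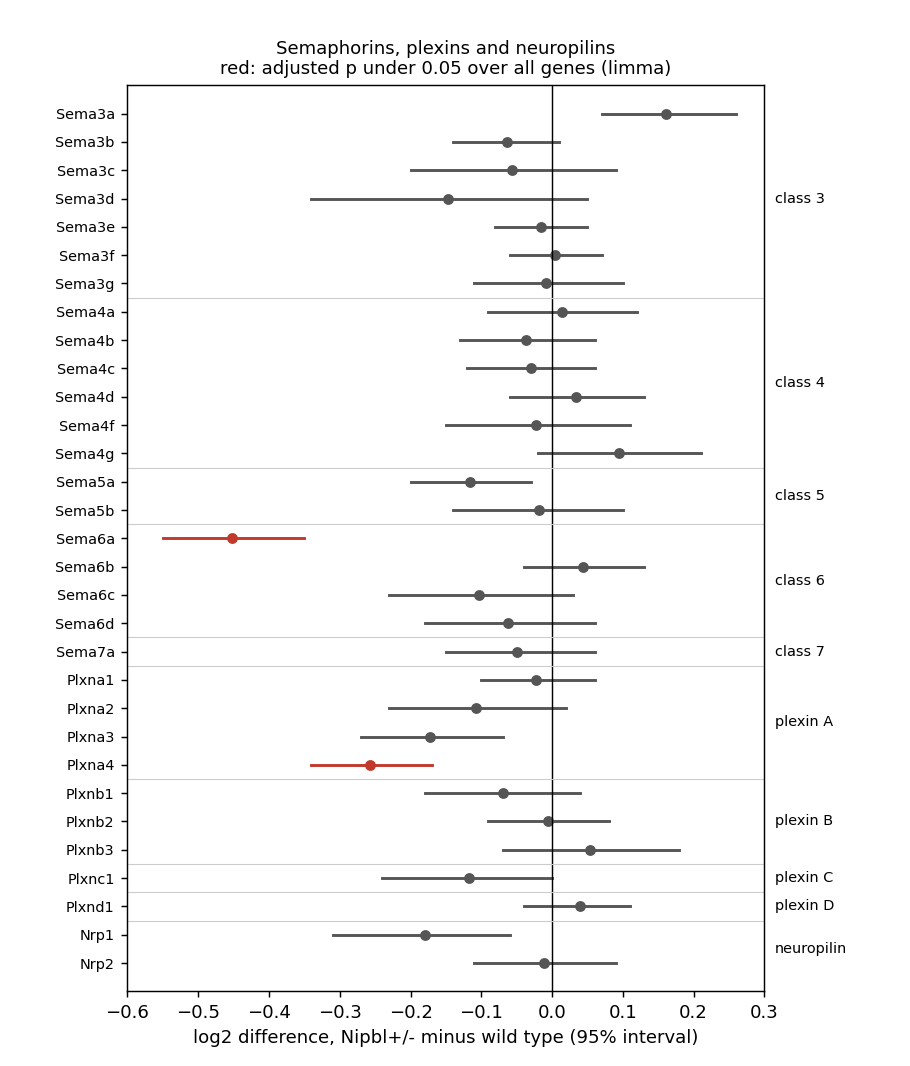
Log2 difference of each of the 31 members, Nipbl+/- minus wild type (horizontal axis), with its 95% interval from limma, grouped by class of ligand and receptor; red marks an adjusted p under 0.05. Sema6a at -0.45 and Plxna4 at -0.26 are the 2 called members, and the intervals of Sema3a, Sema5a, Plxna3 and Nrp1 also leave out 0.

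The tissue and genotype labels were checked first. Nipbl averaged 9.86 ± 0.12 in Nipbl+/- and 10.52 ± 0.12 in wild type embryos on the log2 scale (SD, n = 12 each), a ratio of 0.63 with no overlap. At an unadjusted p under 0.05 from limma, 4 of 14 hindlimb bud mesenchyme markers were higher and 2 lower. Over all genes these shares were 4.13% and 5.14%. All 14 markers were measured and 0 were called at the adjusted threshold. Their mean log2 level per embryo ran from 10.88 to 11.09 in Nipbl+/- and from 10.93 to 11.04 in wild type embryos, and they included Tbx4 (11.70 in Nipbl+/-, 11.71 in wild type) and Pitx1 (11.47 in Nipbl+/-, 11.54 in wild type), which mark the hindlimb. By Xist and 3 Y-linked genes, 3 Nipbl+/- embryos were female and 9 male. Among wild type embryos 8 were female, 3 were male, and wild type replicate 3 carried signal of both kinds. Nipbl+/- replicate 2 and wild type replicate 3 had the lowest array weights, and without these 2 arrays the members called were again 0 higher and 2 lower. All 31 members lay above the 95th percentile (log2 6.32) of 1015 olfactory receptor genes, which limb buds are not known to express, although Sema3e lay above only 95.3% of them.

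Sema6a had the smallest p of the 31 members. Its log2 intensity ran from 9.82 through a median of 10.01 to 10.26 in the Nipbl+/- embryos, against 10.31 through 10.43 to 10.62 in the wild type embryos. The genotypes did not overlap, which held in the lower direction for 8 of all genes measured (0.0401%) and in the higher direction for 0.015%. The mean was 10.0 ± 0.14 in Nipbl+/- and 10.45 ± 0.10 in wild type embryos (SD, n = 12 each). The ratio of Nipbl+/- to wild type was 0.731 (95% interval 0.682 to 0.784; log2 difference -0.45, standard error [SE] 0.049, limma adjusted p = 6.93e-06). By p, Sema6a was the gene ranked 2 of 19937, next to Nipbl itself, and by the size of its fall it ranked 25.

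Plxna4, which also serves with neuropilins as a receptor for class 3 semaphorins, fell less. Its log2 intensity ran from 7.89 through a median of 8.0 to 8.14 in Nipbl+/- embryos, against 8.09 through 8.25 to 8.43 in wild type embryos. The ranges met only at their edges, since 10 of 12 Nipbl+/- embryos lay below the lowest wild type embryo and 1 wild type embryo lay below the highest Nipbl+/- embryo. The mean was 8.0 ± 0.082 in Nipbl+/- and 8.26 ± 0.099 in wild type embryos (SD, n = 12 each), a ratio of 0.837 (95% interval 0.791 to 0.886; log2 difference -0.26, SE 0.04, limma adjusted p = 7.68e-04). For Plxna4 as for Sema6a, each of the 12 Nipbl+/- embryos was below the average of the wild type embryos.

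**Figure D2:**
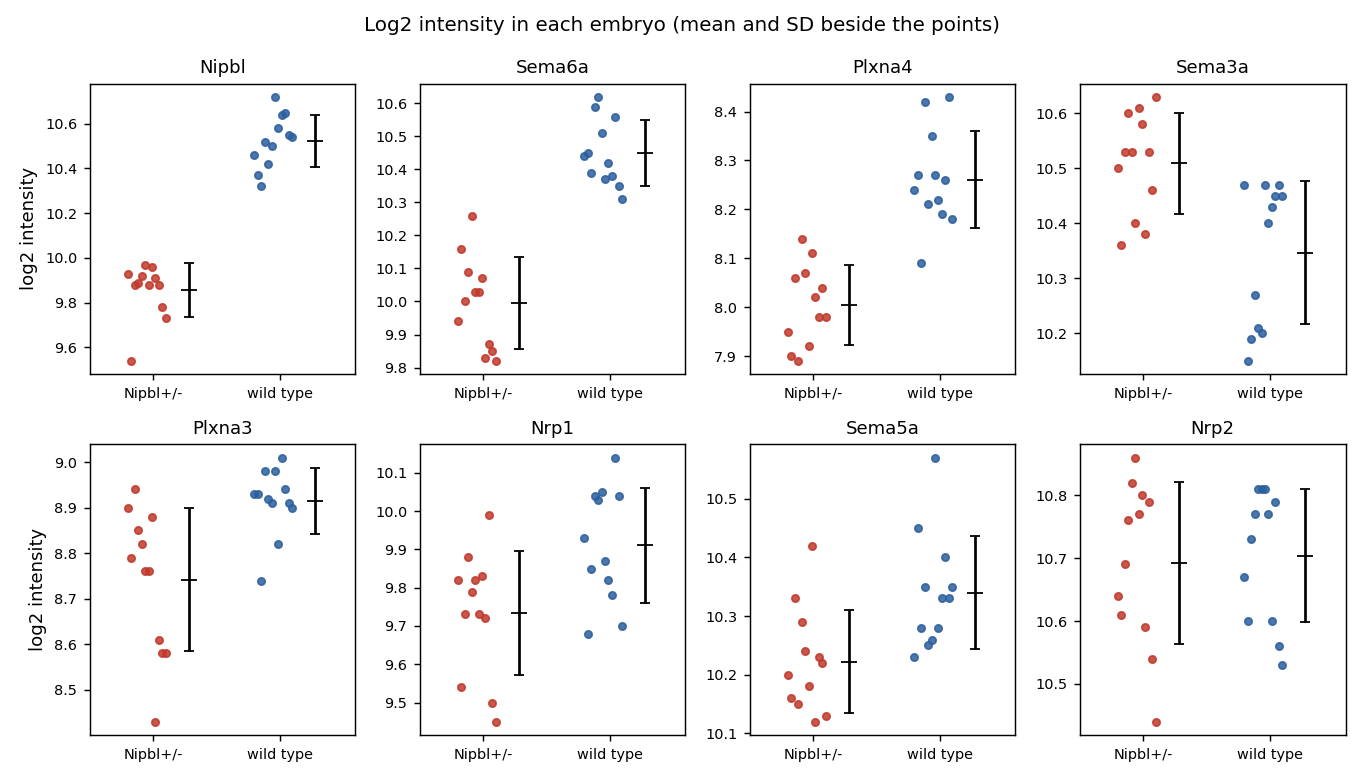
Log2 intensity (vertical axes, each panel with its own scale) of Nipbl and the 7 members described singly, in each Nipbl+/- (red, left) and wild type (blue, right) embryo, with the mean and SD of the genotype in black. The 12 Nipbl+/- embryos for Sema6a, up to 10.26, all lie below the 12 wild type embryos, from 10.31, while for Nrp2 the genotypes cover nearly the same range.

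Both differences were seen within each sex, given here as values with no test. For Sema6a the log2 difference was -0.49 among males (9 Nipbl+/- and 3 wild type embryos) and -0.52 among females (3 Nipbl+/- and 8 wild type embryos). For Plxna4 it was -0.25 among males and -0.25 among females. No correlation between Sema6a and Plxna4 was detected among embryos of 1 genotype. Pearson's r of Sema6a with Plxna4 was 0.14 over the Nipbl+/- embryos (permutation p = 0.668, adjusted p = 0.845). Spearman's rho there was 0.05 (permutation p = 0.887, adjusted p = 0.887), and r was -0.10 without the 2 embryos farthest from the median of Plxna4. Over the wild type embryos r was 0.26 (permutation p = 0.407, adjusted p = 0.845; rho 0.23, permutation p = 0.471, adjusted p = 0.774; r = 0.37 without 2 embryos). Of 22 such relations between a semaphorin and a receptor it is known to bind, 0 passed the adjustment.

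The genes beside Sema6a and Plxna4 were not called. Sema6a lies on chromosome 18, and among the 4 measured genes on either side of it the log2 differences ran from -0.13 for Hsd17b4, an enzyme of peroxisomal fatty acid breakdown, to 0.08 for Lvrn, a peptidase, with adjusted p from 0.515 to 0.978 from limma. Plxna4 lies on chromosome 6. Of its 8 measured neighbours, 1700012A03Rik had the lowest log2 difference, at -0.17 (SE 0.06, limma adjusted p = 0.235), and the other 7 ran from -0.05 to 0.04.

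**Figure D3:**
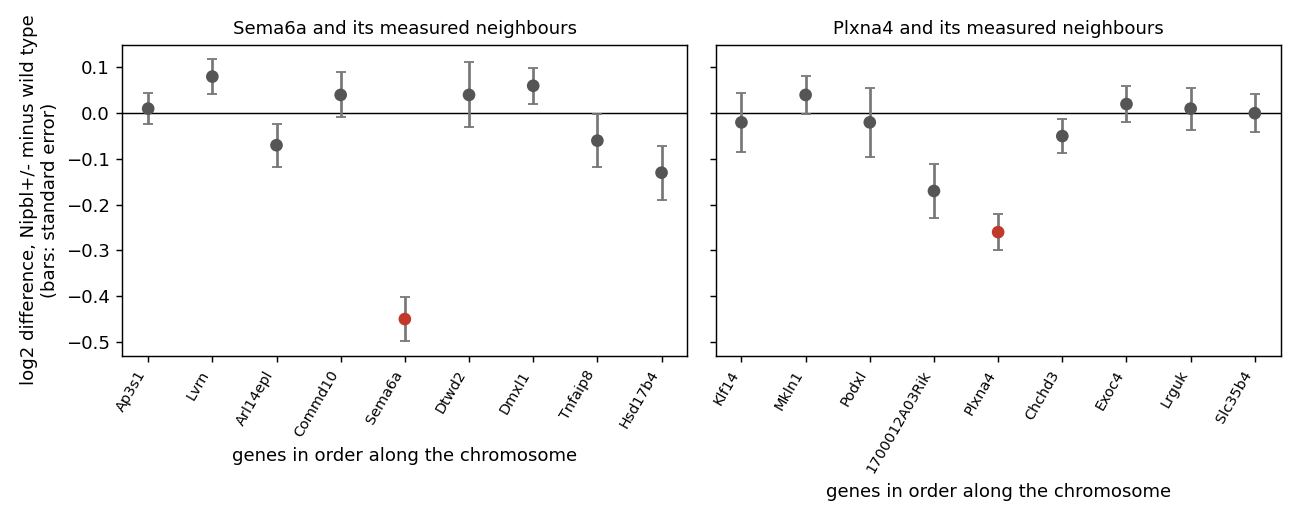
Log2 difference, Nipbl+/- minus wild type (vertical axis, bars are standard errors), of Sema6a (left) and Plxna4 (right) in red and of the 4 measured genes on either side in grey, in order along the chromosome and not to distance. Both red points lie below all of their neighbours, of which 1700012A03Rik is the lowest at -0.17.

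Of the secreted class 3 semaphorins, 0 of 7 were called, and their median log2 difference was -0.02. Sema3a, which repels motor and sensory axons through Nrp1, was the member with the largest positive difference. Its log2 intensity ran from 10.36 through 10.53 to 10.63 in Nipbl+/- embryos, against 10.15 through 10.41 to 10.47 in wild type embryos. All 12 Nipbl+/- embryos lay above the wild type mean and 8 lay above the highest wild type embryo, so the ranges overlapped in part. The ratio was 1.12 (log2 difference 0.16, SE 0.047, unadjusted p = 0.00182, limma adjusted p = 0.124), which did not pass. The wild type embryos fell into separate sets for Sema3a, with replicates 2 to 6 from 10.15 to 10.27 and the other 7 from 10.40 to 10.47. The same 5 arrays had the lowest interquartile ranges over all genes among wild type arrays, from 3.21 to 3.492, against 3.557 to 3.689 for the other 7. With the interquartile range of each array as a covariate, a fit chosen after seeing the data, the log2 difference of Sema3a was 0.16 (limma adjusted p = 0.0211).

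The other 6 genes of class 3 had log2 differences from -0.15 to 0.004. Sema3a, Sema3c, Sema3d and Sema3e all lie on chromosome 5, and their log2 differences were 0.16 for Sema3a, -0.06 for Sema3c, -0.15 for Sema3d and -0.02 for Sema3e. Sema3d varied most of all members within both genotypes. It ran from 7.02 through 7.40 to 7.90 in Nipbl+/- embryos, against 7.14 through 7.56 to 8.01 in wild type embryos, with an SD of 0.28 in Nipbl+/- and 0.23 in wild type embryos, and its log2 difference was -0.15 (SE 0.096, limma adjusted p = 0.713). Sema3f, which acts through Nrp2, was among the steadiest, at 10.46 ± 0.065 in Nipbl+/- and 10.46 in wild type embryos (log2 difference 0.004, 95% interval -0.06 to 0.07). Sema3e, which signals through Plxnd1 without a neuropilin, was the dimmest member, at 6.35 in Nipbl+/- and 6.37 in wild type embryos, close to the olfactory receptor genes.

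Of the membrane-bound semaphorins other than Sema6a, 0 of 12 were called. The 6 genes of class 4, whose receptors are mostly B plexins, had log2 differences from -0.04 to 0.09, with 3 above and 3 below 0. The highest was Sema4g at 0.09 (SE 0.055, limma adjusted p = 0.66), which was 0.04 with a covariate for sex and 0.18 without Nipbl+/- replicates 9 to 12 (limma adjusted p = 0.0816). Sema4d, a ligand of Plxnb1, was the only member with more than 1 probe set, and its log2 difference was 0.03 in the brighter and 0.08 in the dimmer one. In class 5, marked by thrombospondin repeats, Sema5a ran from 10.12 through 10.21 to 10.42 in Nipbl+/- embryos, against 10.23 through 10.33 to 10.57 in wild type embryos. Of the Nipbl+/- embryos 11 of 12 lay below the wild type mean and 8 lay below the lowest wild type embryo, so the ranges overlapped in part. Its ratio was 0.922 (log2 difference -0.12, SE 0.04, limma adjusted p = 0.245), and that of Sema5b was 0.987. The lipid-anchored Sema7a, which acts through integrins and Plxnc1, gave a ratio of 0.967 (limma adjusted p = 0.883).

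Within class 6 the log2 differences of the other 3 genes were 0.04 for Sema6b, -0.10 for Sema6c and -0.06 for Sema6d, against -0.45 for Sema6a. Sema6b and Sema6d bind A plexins, as Sema6a does. Their 95% intervals ran from -0.04 to 0.13 for Sema6b, from -0.23 to 0.03 for Sema6c and from -0.18 to 0.06 for Sema6d, and none reached the interval of Sema6a, from -0.55 to -0.35. The differences between the genes of class 6 were not themselves tested.

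All 4 A plexins, the signalling partners of neuropilins, had log2 differences below 0, with a median of -0.14, and 1 was called. Plxna3 ran from 8.43 through 8.78 to 8.94 in Nipbl+/- embryos, against 8.74 through 8.92 to 9.01 in wild type embryos. Of the Nipbl+/- embryos 11 of 12 lay below the wild type mean, and the ranges overlapped. The ratio was 0.888 (log2 difference -0.17, SE 0.05, unadjusted p = 0.00186, limma adjusted p = 0.126). Plxna3 is X-linked. Its log2 difference was -0.17 among males (9 Nipbl+/- and 3 wild type embryos) and -0.29 among females (3 Nipbl+/- and 8 wild type embryos), with no test. The 3 Nipbl+/- females were replicates 8, 9 and 12, at 8.88, 8.43 and 8.58, so the female value cannot be told apart from the low values of replicates 9 to 12. The 4 lowest Nipbl+/- embryos for Plxna3, from 8.43 to 8.61, were replicates 9 to 12, which were also the 4 lowest for Sema6a, from 9.82 to 9.87. Without these 4 embryos the log2 difference was -0.08 for Plxna3 (adjusted p = 0.433), -0.38 for Sema6a (adjusted p = 3.71e-04) and -0.26 for Plxna4 (adjusted p = 0.0124, all from limma), in a fit chosen after seeing the data. Their arrays had interquartile ranges from 3.308 to 3.498, against 3.27 for replicate 2 and 3.556 to 3.758 for the other 7 Nipbl+/- arrays, and with that range as a covariate Plxna3 was called lower (log2 difference -0.18, limma adjusted p = 0.0134). Plxna2, which also binds Sema6a, had a log2 difference of -0.11 (SE 0.062, limma adjusted p = 0.654), and Plxna1 one of -0.02.

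**Figure D4:**
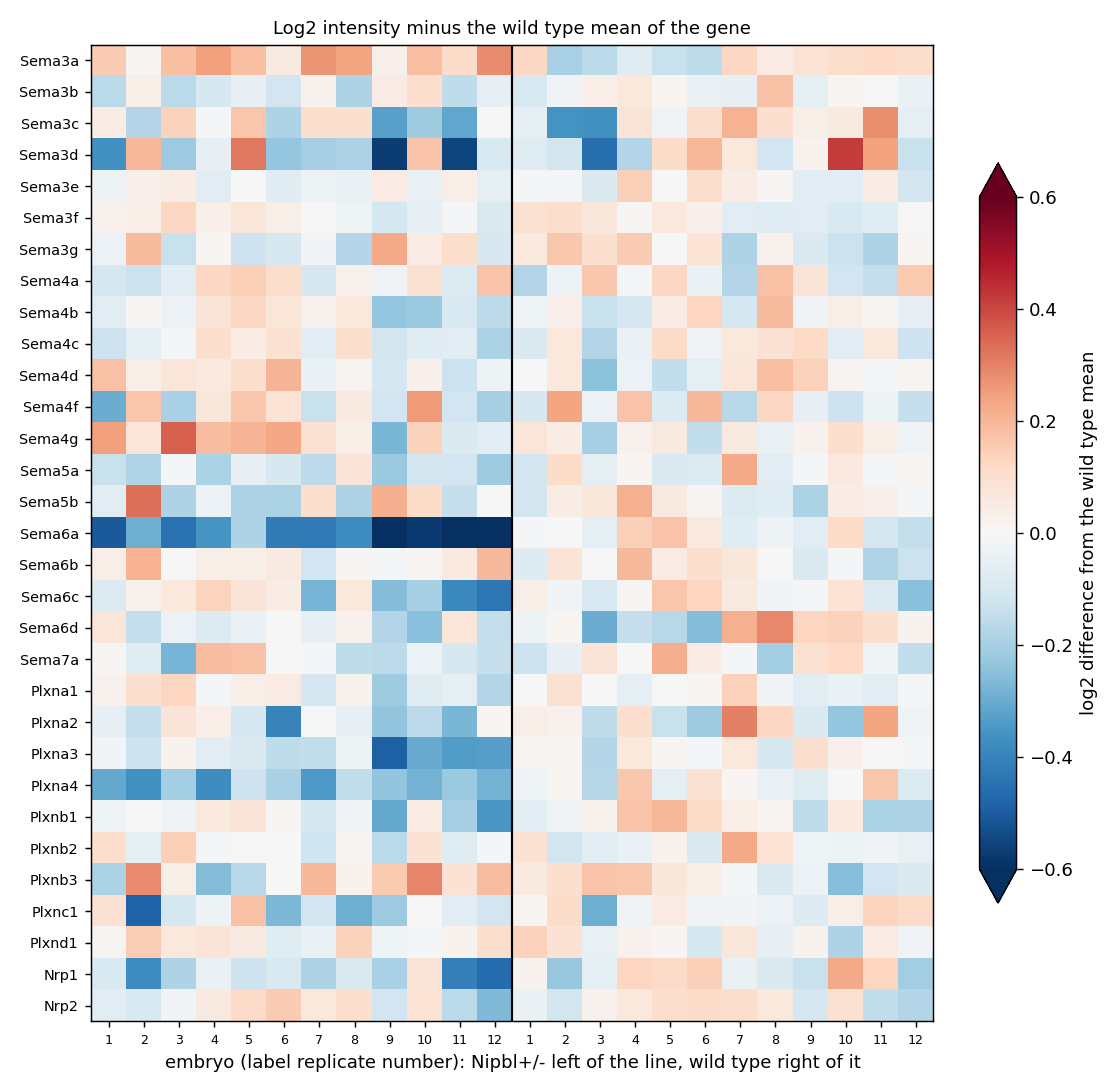
Log2 intensity of each member (rows, by class) minus its wild type mean in each embryo, with Nipbl+/- embryos left and wild type embryos right of the line, columns numbered by label replicate; blue is below and red above the wild type mean, and colours end at 0.6 in either direction. Sema6a is blue in 12 of 12 Nipbl+/- embryos, darkest in replicates 9 to 12, and Sema3a is blue in wild type replicates 2 to 6.

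The remaining plexins gave 0 calls among 5 genes. The B plexins, receptors of class 4 semaphorins, had log2 differences of -0.07 for Plxnb1, -0.006 for Plxnb2 and 0.05 for the X-linked Plxnb3. Plxnd1, a receptor on endothelial cells, had 0.04 (95% interval -0.04 to 0.11). Plxnc1, the receptor of Sema7a, had -0.12 (SE 0.059, unadjusted p = 0.0556, limma adjusted p = 0.562).

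The neuropilins differed from each other in their values, with 0 of 2 called. Nrp1, the co-receptor of Sema3a and of VEGF-A, ran from 9.45 through 9.76 to 9.99 in Nipbl+/- embryos, against 9.68 through 9.90 to 10.14 in wild type embryos. The ranges overlapped widely, and 11 of 12 Nipbl+/- embryos lay below the wild type mean. Its ratio was 0.883 (log2 difference -0.18, 95% interval -0.31 to -0.06, unadjusted p = 0.00639, limma adjusted p = 0.229), with a log2 difference of -0.26 among males and -0.22 among females. Nrp2, the co-receptor of Sema3f, ran from 10.44 through 10.72 to 10.86 in Nipbl+/- embryos, against 10.53 through 10.75 to 10.81 in wild type embryos, so the genotypes covered nearly the same range. Its ratio was 0.992 (95% interval 0.926 to 1.06, limma adjusted p = 0.984). The difference between the changes of the neuropilins was not tested.

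For most of the 29 members not called, a large change lay outside the interval of the difference. In 28 of them the 95% interval of the ratio lay between 0.8 and 1.25, and the exception was Sema3d, with an interval from 0.788 to 1.03. The median SD of the members was 0.13 over Nipbl+/- and 0.11 over wild type embryos on the log2 scale, beside 0.13 over Nipbl+/- and 0.13 over wild type embryos for all genes.

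Genes that act with the family were read from lists of known partners. Of 8 VEGF ligands and receptors that share neuropilins, Vegfd, a ligand of the lymphatic receptor Flt4, was called lower and 0 were called higher. Its log2 intensity was 8.67 ± 0.10 in Nipbl+/- and 8.88 ± 0.13 in wild type embryos (SD, n = 12 each; log2 difference -0.21, SE 0.047, limma adjusted p = 0.0229), and the ranges overlapped, from 8.51 to 8.89 in Nipbl+/- and from 8.70 to 9.09 in wild type embryos. The median of this list was 0.04, and next in order of p were Vegfb with 0.10 (adjusted p = 0.404), Flt4 with 0.10 (adjusted p = 0.613) and Pgf with -0.09 (adjusted p = 0.766, all from limma). Of 14 other semaphorin receptors and co-receptors, which include L1cam, Met and integrins, 0 were called and the median was -0.01. Nrcam, an adhesion molecule that associates with neuropilin receptors, had the smallest p of these (log2 difference -0.19, limma adjusted p = 0.145). It was dim, at 5.94 in Nipbl+/- and 6.13 in wild type embryos, below log2 6.32, the 95th percentile of the olfactory receptor genes. Next in order of p were L1cam with 0.11 (limma adjusted p = 0.557) and Mst1r with -0.11 (limma adjusted p = 0.7).

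Downstream of plexins, 0 of 41 measured cytoplasmic effectors of the 44 listed were called. Their log2 differences ran from -0.27 to 0.15 with a median of -0.03. At an unadjusted p under 0.05 from limma, 6 of the 41 were lower and 3 higher, against 5.14% and 4.13% of all genes. Of those named here, Mical1, an enzyme that oxidises actin, had -0.09 (adjusted p = 0.227), and the kinase Cdk5 had -0.13 (adjusted p = 0.258, both from limma). Of 20 ligands and receptors of other guidance families (netrins, Slits and RGMs with their receptors), 0 were called and the median was -0.07. The log2 difference lay below 0 for 15 of the 20, against 53.5% of all genes. At an unadjusted p under 0.05 from limma 4 of the 20 were lower and 0 higher, against 5.14% and 4.13% of all genes. Those with the smallest p were the netrin receptor Unc5b with -0.14 (adjusted p = 0.17), Rgmb with -0.16 (adjusted p = 0.213) and Ntn3 with -0.19 (adjusted p = 0.289, all from limma).

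Markers of the other cells of the bud were set beside these values, since Sema6a, Plxna4 and the neuropilins are made by several of them. Of 18 endothelial markers 0 were called (median log2 difference 0.01, mean level per embryo from 9.17 to 9.38 in Nipbl+/- and from 9.08 to 9.41 in wild type embryos). Of 7 muscle precursor markers 0 were called, with mean levels from 7.41 to 7.82 in Nipbl+/- and from 7.37 to 7.71 in wild type embryos. Of 13 markers of Schwann cell precursors and axons, Erbb3, a neuregulin receptor, was called higher (log2 difference 0.25, limma adjusted p = 0.0499). The list's median was 0.02, with 8 markers above and 5 below 0. At an unadjusted p under 0.05 from limma, 1 marker of this list was higher and 2 were lower, against 4.13% and 5.14% of all genes. The list's mean level ran from 6.89 to 7.10 in Nipbl+/- and from 6.89 to 7.08 in wild type embryos. Several of its markers lay below log2 6.32, the 95th percentile of the olfactory receptor genes. Of 14 ectoderm and apical ridge markers, Krt5, a keratin of basal epithelium, was called lower (log2 difference -0.31, limma adjusted p = 0.00171). The list's median was 0.03, with 9 markers above and 5 below 0. At an unadjusted p under 0.05 from limma, 2 of the 14 were higher and 1, Krt5, was lower. The mean level of this list ran from 8.80 to 9.15 in Nipbl+/- and from 8.85 to 9.03 in wild type embryos. All 13 macrophage markers had log2 differences below 0, with a median of -0.11, and 0 were called. At an unadjusted p under 0.05 from limma 5 of the 13 were lower, against 5.14% of all genes. The mean level of this list ran from 6.41 to 6.59 in Nipbl+/- and from 6.47 to 6.72 in wild type embryos. Several of its markers, such as Adgre1 (5.39 in both genotypes), lay below log2 6.32, the 95th percentile of the olfactory receptor genes. Of 7 erythroid markers 0 were called. At an unadjusted p under 0.05 from limma, 0 endothelial markers were higher and 2 lower. By the same measure 1 muscle precursor marker was higher and 0 lower, and 0 erythroid markers were higher and 1 lower. The part of the macrophage, nerve and ectoderm markers in the results for Sema6a and Plxna4 was not tested beyond correlations within each genotype. Over 310 such relations of the members with the endothelial, nerve, muscle, macrophage and ectoderm lists, 0 passed the adjustment.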

How the data were processed

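Total RNA of both hindlimb buds of each of 12 Nipbl+/- and 12 wild type mouse embryos at E10.5 was hybridised to an Affymetrix array of its own. The authors' methods name GenePattern's Expression File Creator for this step, and RMA is the tool in the submitters' processing notes (version not given in the sources used here). The deposited values are thus log2 intensities, background-corrected, normalized between arrays and summarised per probe set. Normalization between arrays can hide a change shared by most genes, and RMA compresses differences of dim probe sets. The labels call the embryos biological replicates. No array was identical to another (0 identical pairs), and array medians over all genes ran from 7.603 to 7.711.

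Of 28159 probe sets, 21640 had 1 platform symbol, 1321 with several were left unnamed, and 5198 had none. By Entrez ID 21553 of those with 1 symbol matched RefSeq genes of GRCm38.p6, used for current names, chromosomes and gene order. For 954 genes with several probe sets the brightest over all 24 arrays was used, which left 19937 genes.

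Genotypes were compared with limma 3.58.1 (lmFit and eBayes, R 4.3.3), with Benjamini-Hochberg adjustment across the 19937 genes and a threshold of 0.05. The authors' module, Comparative Markers Selection, was not used here. The fit was tested on simulated data. Correlations across embryos used 100000 permutations, two-sided, within each genotype, with adjusted values over each family of relations. Members described singly were those with an unadjusted p under 0.05 and both neuropilins; of each other list the called genes and up to 3 more with the smallest p were named, apart from 1 cytoplasmic effector that the rule takes and that is not reported here, while marker lists were given by counts and called genes, Tbx4 and Pitx1 being named as hindlimb markers. Members and lists were chosen with earlier results of these data known. Alternatives covered the mean over probe sets, array weights, the variance model, leaving out dim genes, replicate number, sex, array medians, the threshold and a t-test of unlogged values. After seeing the data these were added: leaving out each embryo, the 2 arrays of lowest weight or Nipbl+/- replicates 9 to 12, values within each sex, and a covariate for an array's interquartile range. Plots were made in Python 3.11.15 with matplotlib 3.10.9.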

Additional observations from a re-analysis of the deposited data

How the results depend on the processing

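Sema6a was called lower under all 11 alternatives (log2 difference -0.49 to -0.38, adjusted p from 5.48e-07 to 3.71e-04 from limma or, on linear values, the t-test) and Plxna4 likewise (-0.26 to -0.23, adjusted p from 1.18e-04 to 0.0124). The count of members called stayed at 0 higher and 2 lower when each embryo was left out in turn (0 to 0 higher, 2 to 2 lower), under the probe set, filter, variance, t-test, array weight, block, sex and array median alternatives, and without the 2 arrays of lowest weight or Nipbl+/- replicates 9 to 12. At an adjusted p under 0.25 it was 1 higher and 5 lower, against 1.21% and 1.91% of all genes. With the interquartile range of each array as a covariate it was 1 higher (Sema3a, adjusted p = 0.0211) and 3 lower (with Plxna3, adjusted p = 0.0134), while the calls over all genes were 185 higher and 302 lower, against 57 and 105 without the covariate; the cause was not tested. For Sema3a the other alternatives gave adjusted p from 0.0733 to 0.186, and leaving out each embryo in turn 0.0704 to 0.224. Over all genes array weights gave 101 higher and 180 lower, and a covariate for sex 30 higher and 95 lower.

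Of 509 alternative values of single members, 490 kept their direction and side of the threshold, 2 crossed it (above) and 17 changed sign, all in members not called. With a covariate for sex Sema3f had -0.013, Sema3g 0.015 and Sema4f 0.002. With array medians set to 0, which moved all genes by 0.01, Sema3g had 0.004 and Plxnb2 0.005. With array weights Nrp2 had 0.008, and with the array spread as a covariate Sema3g had 0.001. Without Nipbl+/- replicates 9 to 12, Sema3c had 0.024, Sema4b 0.033, Sema4c 0.01, Sema6c 0.005, Plxna1 0.031, Plxnb2 0.01, Plxnb3 -0.011 and Nrp2 0.04. Leaving out each embryo in turn gave Nrp2 from -0.028 to 0.011, and its sign changed without Nipbl+/- replicate 11 or 12.

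The genotypes share replicate numbers in the labels, which do not say whether same-numbered embryos share a litter. The authors describe the wild type and Nipbl+/- embryos as stage-matched littermates. The deviations of same-numbered embryos correlated above 0.1 in 5 of 12 pairs, and 1 Nipbl+/- and 3 wild type embryos correlated best with their own number. Such correlations cannot show which embryos share a litter. With the replicate block 0 members were called higher and 2 lower, Sema6a had a log2 difference of -0.45 and Plxna4 of -0.26, Nrp1 had an adjusted p of 0.0621, and all genes gave 48 higher and 121 lower. The number of arrays limits the precision, with a median 95% interval of 0.10 on either side of a member's log2 difference.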
